A study of Mus musculus with 42 samples.

Results

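The expression of 8 genes of growth factor signalling, adiponectin signalling and hepatocyte identity was followed in mouse liver: Igf1, Irs2, Adipor1, Adipor2, Cebpa, Cebpd, Foxa1 and Foxa2. They were chosen by name as the mouse probes that carry one of these symbols, and they make up 8 of the 277 genes of the Steroltalk array, a spotted cDNA array. Each gene had 1 probe of 3 spots. TCPOBOP, an agonist of the constitutive androstane receptor (CAR), lowered Igf1, Cebpa and Adipor2 on both diets, with no mouse of the treated and the vehicle groups overlapping. PCN, which activates the rodent pregnane X receptor (PXR), changed 0 of the 8 genes past the threshold on either diet. Over the whole array 2.53% of genes passed it with PCN on standard and 1.08% on cholesterol diet, against 43.3% and 37.5% with TCPOBOP. These shares come from different fits, and PCN on standard diet was read on 11 dimmer arrays, so they were not found with equal sensitivity. On cholesterol diet Igf1 passed with PCN when the TCPOBOP mice were left out of the fit.

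All mice were female C57BL/6, and each array held RNA from the left lateral liver lobe of 1 mouse, taken 24 h after a single intraperitoneal injection. The groups on standard chow received vehicle (corn oil, 19 weeks old, n = 6) or TCPOBOP (3 mg/kg, 19 weeks, n = 6). The groups fed 1% cholesterol for 1 week received vehicle (19 weeks, n = 5), TCPOBOP (3 mg/kg, 18 weeks, n = 6) or PCN (40 mg/kg, 16 weeks, n = 6). A further set on standard chow received vehicle (19 weeks, n = 5) or PCN (40 mg/kg, 18 to 19 weeks, n = 6). The first 5 groups were hybridized against reference pool 1 and the last 2 against reference pool 3, so levels are compared only within a pool. Age differed with treatment among the cholesterol-fed groups, and the effects of age and treatment cannot be told apart there.

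IGF-1 is the growth factor that the liver secretes under the control of growth hormone. IRS2 is an adaptor protein that couples the insulin and IGF-1 receptors to the kinases below them, and ADIPOR1 and ADIPOR2 are the receptors through which the fat-derived hormone adiponectin acts on hepatocytes. C/EBPalpha, the product of Cebpa, is a transcription factor that holds hepatocytes in a differentiated, non-dividing state, and C/EBPdelta (Cebpd) is a relative known for its induction in the acute phase response. FOXA1 and FOXA2 are forkhead factors that open chromatin at liver genes from early development on. The liver sample is a mixture of cells, so fewer cells of a type and less RNA per cell cannot be told apart in any value below.

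The promoters of the 3 genes that fell together with TCPOBOP are shown because these genes moved alike. They are RefSeq windows of build GRCm38.p6, from 250 bases before to 50 bases after a start site, 5′ to 3′ on the gene's own strand, with capitals marking a match to a FOXA motif. The Igf1 window lies at chr10:87860861-87861160 on the plus strand, that of Cebpa at chr7:35119043-35119342 on the plus strand, and that of Adipor2 at chr6:119388685-119388984 on the minus strand.
Igf1: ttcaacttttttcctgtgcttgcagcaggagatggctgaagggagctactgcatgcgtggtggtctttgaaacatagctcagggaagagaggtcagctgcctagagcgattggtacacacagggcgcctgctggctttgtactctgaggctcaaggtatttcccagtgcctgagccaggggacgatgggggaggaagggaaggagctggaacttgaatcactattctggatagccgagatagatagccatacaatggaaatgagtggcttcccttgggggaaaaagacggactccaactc
Cebpa: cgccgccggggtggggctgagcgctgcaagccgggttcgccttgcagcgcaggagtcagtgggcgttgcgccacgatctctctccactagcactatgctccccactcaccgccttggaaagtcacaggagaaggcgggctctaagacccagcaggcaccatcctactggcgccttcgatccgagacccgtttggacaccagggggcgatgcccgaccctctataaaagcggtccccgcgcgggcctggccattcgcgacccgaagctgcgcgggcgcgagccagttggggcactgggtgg
Adipor2: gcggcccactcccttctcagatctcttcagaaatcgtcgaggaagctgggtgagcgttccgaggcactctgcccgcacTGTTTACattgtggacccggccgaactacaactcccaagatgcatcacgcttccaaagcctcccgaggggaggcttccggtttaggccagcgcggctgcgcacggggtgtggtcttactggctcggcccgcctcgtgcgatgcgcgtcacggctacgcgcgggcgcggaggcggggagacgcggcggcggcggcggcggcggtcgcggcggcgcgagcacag

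In RefSeq, 7 of the 8 genes had such windows, 10 in all, and Cebpd was not among them. The C/EBP motif TTGCNNAA, searched on both strands, was found in 0 of the 10 windows and in 10.8% of all 32851 windows. The FOXA motif TGTTTAC was found in 3 of the 10, against 3.65% of all windows. These matches lay in the Adipor2 window above, at position -172 from the start site, in the Foxa1 window at -141 and in the second Adipor1 window at 36. The other FOXA motif, TATTTAC, was found in 0 of the 10 windows and in 3.04% of all. A match describes these letters only, and the windows of Igf1, Cebpa, Irs2 and Foxa2 held none of these motifs. The motifs do not overlap each other in these windows.

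The arrays of reference pool 1 were the brighter ones, with a median liver signal per array of 157.68 to 297.11 and 62.1% to 80.1% of probes above background, against 23.6 to 137.27 and 52.3% to 70% on pool 3. Among the arrays of pool 1, 140 of 406 pairs had a correlation under -0.3 over all genes, the lowest being -0.67, and all 140 paired a TCPOBOP array with one of another treatment. On pool 3, 2 of 55 pairs did so, both between a vehicle and a PCN array, with a lowest value of -0.37. The values are ratios to a reference that the authors describe as an equal mix of their RNA samples. Against such a mix, genes that differ between treatments tend to take opposite signs. These correlations therefore do not compare the liver profiles themselves. The labels give the liver RNA as Cy3 and the reference as Cy5, which fixes the direction of each ratio. Of the hepatocyte markers, 12 of 15 were on the array, and 11 of them were above background on every array, the other being Cyp7a1. The only macrophage marker on the array, Msr1, was above background on 0 arrays. Of the markers of stellate, endothelial and blood cells, 0 were on it.

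Igf1, Adipor1, Adipor2, Cebpa and Foxa2 were above background on all 40 arrays. The probes of Irs2 and Foxa1 were not well above background on any array, and Cebpd reached that level on 0 or 1 array per group. Over the 7 groups, the median liver intensity after subtraction of the local background was 4.99 to 35.58 for Irs2, 24.58 to 45.02 for Cebpd and -7.68 to 0.165 for Foxa1. For these 3 genes the comparisons below give only whether they passed the test, and no fold change. In the text below, "passed the test" means an adjusted p under 0.05 from limma over all 277 genes, and a level is the log2 ratio of liver over reference RNA.

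**Figure D1:**
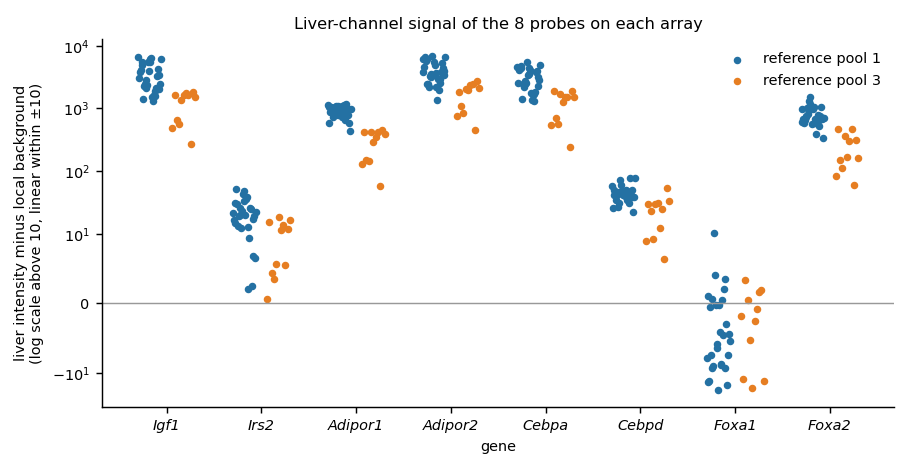
Liver-channel intensity minus local background for the probes of the 8 genes, 1 point per array, with 29 arrays of reference pool 1 (blue) and 11 of reference pool 3 (orange), on an axis that is logarithmic above 10. Each probe is read against its own background: the points of Foxa1 scatter around 0, those of Irs2 and Cebpd lie low, and the other 5 genes were above background on every array.

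Igf1 had the widest range of the 8 genes, spanning 1.65 log2 units between its lowest and highest group mean on pool 1. In vehicle mice on standard diet its level lay between -0.07 and 0.12, with a median of 0.03. In TCPOBOP mice on that diet it lay between -1.49 and -0.94, with a median of -1.04. The 2 groups did not overlap, and 5 of the 6 treated mice were close together, with replicate 5 below them. The log2 fold change was -1.13 (SE 0.14, adjusted p = 1.33e-06 from limma), that is, 0.456 times the vehicle level, in 6 of 6 mice.

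On cholesterol diet the vehicle mice had Igf1 levels of 0.55, 0.41, 0.51, 0.69 and 0.59, all above every vehicle mouse on standard diet. TCPOBOP mice on this diet ranged from -1.31 to -0.12, with a median of -0.89. They were spread far more widely than the other groups, with 3 of the 6 at -1.31, -1.15 and -1.06 and the rest at -0.72, -0.46 and -0.12 (SD 0.45 against 0.20 for TCPOBOP on standard diet). They still did not overlap with vehicle, and the log2 fold change was -1.35 (SE 0.15, adjusted p = 2.75e-07 from limma). The effects on the 2 diets did not differ past the threshold (difference -0.22, 95% CI -0.66 to 0.22, adjusted p = 0.756 from limma).

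Cebpa, which encodes the differentiation factor, was also lower with TCPOBOP on both diets. Its level was between 0.11 and 0.65 (median 0.29) in vehicle mice and between -1.05 and -0.53 (median -0.92) in TCPOBOP mice on standard diet. No mice of the groups overlapped, and the log2 fold change was -1.21 (SE 0.12, adjusted p = 4.8e-08 from limma), or 0.434 times vehicle. On cholesterol diet the vehicle mice were at 0.74, 0.29, 0.42, 0.38 and 0.59, and the TCPOBOP mice were between -0.85 and -0.14 (median -0.49). Again no mice overlapped, and the log2 fold change was -0.97 (SE 0.13, adjusted p = 2.96e-06 from limma). The difference of the 2 effects was 0.24 (95% CI -0.13 to 0.61, adjusted p = 0.652 from limma).

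Adipor2, the adiponectin receptor that predominates in liver, fell as well. In vehicle mice on standard diet its level was 0.04 to 0.29 (median 0.18), and with TCPOBOP it was -1.07 to -0.45 (median -0.67). All 6 treated mice were below all 6 controls, with a log2 fold change of -0.91 (SE 0.13, adjusted p = 4e-06 from limma), or 0.534 times vehicle. On cholesterol diet the vehicle mice were at 0.52, -0.18, 0.35, 0.50 and -0.21, so that 2 of the 5 stood well below the other 3. The TCPOBOP mice, at -0.80 to -0.25 (median -0.60), lay below all of them, with a log2 fold change of -0.77 (SE 0.13, adjusted p = 8.03e-05 from limma). The difference between diets was 0.13 (95% CI -0.24 to 0.51, adjusted p = 0.862 from limma).

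Adipor1, the other adiponectin receptor, moved little and in the opposite direction. Its level was -0.22 to 0.01 (median -0.10) in vehicle and -0.08 to 0.16 (median 0.07) in TCPOBOP mice on standard diet, and these ranges overlapped. The log2 fold change was 0.16 (SE 0.05, adjusted p = 0.0168 from limma), or 1.12 times vehicle. On cholesterol diet the levels were -0.21, -0.14, -0.28, -0.20 and -0.09 with vehicle and -0.12 to 0.12 (median 0.01) with TCPOBOP, and the log2 fold change was 0.19 (SE 0.06, adjusted p = 0.00881 from limma). With the deposited log2 ratios, which also hold vehicle mouse 2 of the cholesterol diet, these changes were 0.19 (adjusted p = 0.0525) and 0.12 (adjusted p = 0.226), with those of the same mice 0.19 (adjusted p = 0.0571) and 0.14 (adjusted p = 0.187), with median centring 0.14 (adjusted p = 0.243) and 0.20 (adjusted p = 0.0872), all from limma, so neither call held there. Nor did they hold within the 2 sets of arrays described below, where the changes were 0.18 and 0.12 on standard and 0.18 and 0.23 on cholesterol diet (adjusted p = 0.0678, 0.499, 0.0726 and 0.336).

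Among the 5 genes above background, Foxa2 was the only one whose mean level with TCPOBOP lay on opposite sides of vehicle on the 2 diets. On standard diet it was at -0.57 to -0.07 (median -0.18) with vehicle and at -0.61 to -0.20 (median -0.41) with TCPOBOP. The groups overlapped, and the log2 fold change of -0.19 (SE 0.10, adjusted p = 0.125 from limma) did not pass the test. On cholesterol diet it was at -0.08, -0.23, -0.32, 0.07 and -0.41 with vehicle and at -0.19 to 0.26 (median 0.21) with TCPOBOP. Here 5 of the 6 treated mice, at 0.13 to 0.26, were above every control and replicate 1 was not, and the log2 fold change was 0.34 (SE 0.10, adjusted p = 0.0118 from limma).

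Tested directly, the difference between these 2 Foxa2 effects was 0.53 log2 units (95% CI 0.23 to 0.82, adjusted p = 0.0528 from limma), which missed the threshold. No gene of the array passed it in this comparison (0 of 277, 0%), and 35 of them (12.6%), including Foxa2 and Irs2 among the 8 genes here, had an unadjusted p under 0.05. When probes below background were left out, 208 genes were tested and 6 passed, Foxa2 among them (adjusted p = 0.0448 from limma). The rise on cholesterol diet was 0.43 (adjusted p = 0.00624) among the arrays whose files give spot positions in millimetres and 0.10 (adjusted p = 0.862) among those in micrometres, where a single vehicle mouse, at -0.08, was the control. With the deposited log2 ratios of the 4 groups in this fit, which include vehicle mouse 2, the rise was 0.25 (adjusted p = 0.188). With those of the same mice it was 0.34 (adjusted p = 0.0697), all from limma.

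**Figure D2:**
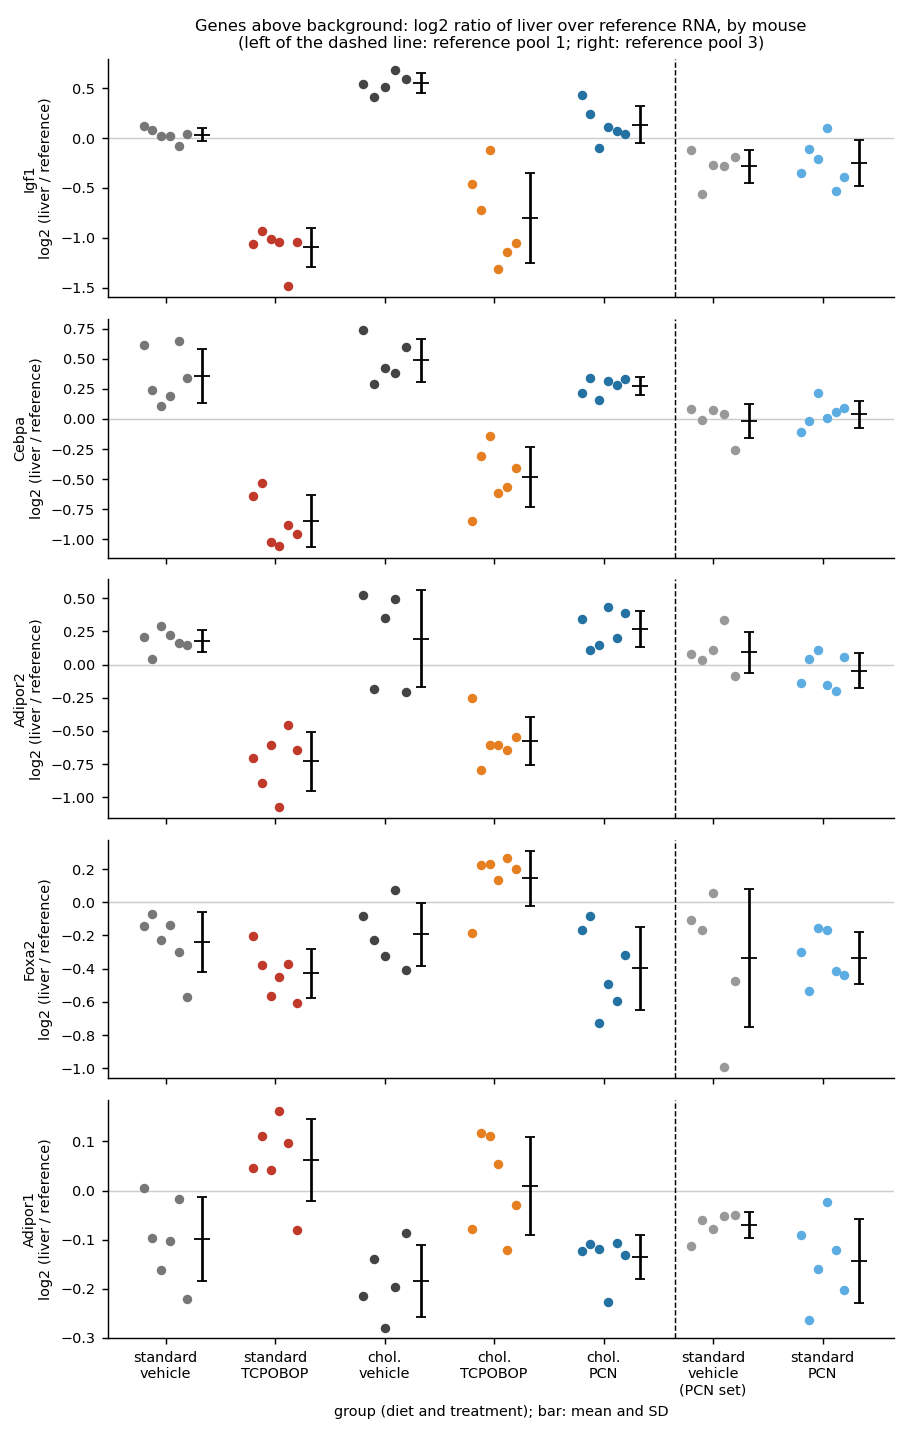
Log2 ratio of liver over reference RNA for the 5 genes above background, 1 point per mouse, in the 7 groups of diet and treatment, with the mean and SD of each group as a black bar and the 2 reference pools apart. Igf1, Cebpa and Adipor2 lay lower in both TCPOBOP groups than in every other mouse of pool 1, while Foxa2 lay highest in cholesterol-fed TCPOBOP mice, 5 of which were at 0.13 to 0.26.

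Counted over all 8 genes, 5 passed the test for TCPOBOP on standard diet, 2 higher and 3 lower, beside 43.3% of all genes on the array, 22% higher and 21.3% lower. Foxa1, 1 of the 5, was called higher (adjusted p = 0.0116 from limma) with its probe below background in both groups. On cholesterol diet 6 of the 8 passed, 2 higher and 4 lower, beside 37.5% of all genes, 23.1% higher and 14.4% lower, and Irs2, 1 of the 6, was called lower (adjusted p = 0.0351 from limma) below background. Groups without overlap were found for 4 of the 8 genes on standard diet, Foxa1 included, beside 25.6% of all genes, and for 3 of the 8 on cholesterol diet, beside 14.4%. The median log2 fold change over the 8 genes was -0.11 on standard and -0.10 on cholesterol diet, against -0.01 and -0.02 over all genes. These medians include Irs2, Cebpd and Foxa1, so they rest in part on probes at or near background.

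The falls of Igf1, Cebpa and Adipor2 were of similar size in both sets of arrays. On standard diet they were -1.15, -1.30 and -0.90 among the 8 arrays in millimetres and -1.10, -1.02 and -0.92 among the 4 in micrometres. On cholesterol diet they were -1.46, -0.85 and -0.71 in the first and -1.14, -1.32 and -1.05 in the second, which held 1 vehicle array. Among the arrays in micrometres on standard diet, 2 against 2, the adjusted p from limma was 0.00641 for Igf1 and 0.0514 for both Cebpa and Adipor2. On cholesterol diet these arrays set 2 TCPOBOP mice against 1 vehicle mouse, whose spread is assumed to be that of the other groups, and the adjusted p-values of 0.014, 0.0545 and 0.0761 for Igf1, Cebpa and Adipor2 rest on that assumption.

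The cholesterol diet alone raised Igf1 in vehicle mice. The log2 fold change was 0.51 (SE 0.15, adjusted p = 0.0219 from limma), or 1.43 times the level on standard diet, in 5 of 5 mice. The levels given above did not overlap. When vehicle mouse 5 of the standard diet was left out it was 0.49 (adjusted p = 0.0504), and when mouse 5 of the cholesterol diet was left out it was 0.48 (adjusted p = 0.0599), from limma, so the call rested on each of these mice. The rise was 0.55 (adjusted p = 0.0924) among the arrays in millimetres and 0.45 (adjusted p = 0.29) among those in micrometres, which held 1 mouse on cholesterol diet.

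The only other of the 8 genes past the threshold for the diet was Irs2, called higher (adjusted p = 0.0219 from limma) with its probe below background on every array. Its levels were 0.17, 0.17, 0.05, 0.17 and 0.17 on cholesterol diet and -0.36 to 0.07 on standard diet, and these overlapped. In all, 2 of the 8 passed, both higher, beside 14.4% of all genes and 4.69% higher, and 1 of the 8 did not overlap, beside 10.8%. Cebpa, Adipor1, Adipor2 and Foxa2 had changes of 0.13, -0.08, 0.02 and 0.05 (adjusted p = 0.58, 0.327, 0.956 and 0.861 from limma). Their 95% CIs ran from -0.14 to 0.39, from -0.20 to 0.03, from -0.26 to 0.29 and from -0.16 to 0.26.

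PCN on cholesterol diet left 0 of the 8 genes past the threshold, beside 1.08% of all genes, 3 in number, and 1 of the 8 had an unadjusted p under 0.05, beside 12.6% of all genes. That gene was Igf1, at -0.10 to 0.44 (median 0.09) with PCN, below the vehicle mean in 6 of 6 mice. Its log2 fold change was -0.41 (SE 0.17, 95% CI -0.78 to -0.05, adjusted p = 0.295 from limma), and 1 PCN mouse reached into the vehicle range. A fit that left out the TCPOBOP mice gave an adjusted p of 0.0418 from limma. The PCN mice were at 0.44 and 0.25 on the arrays in micrometres and between -0.10 and 0.11 on those in millimetres, and the change was -0.21 and -0.52 within these sets (adjusted p = 0.916 and 0.205), the first with 1 vehicle mouse. Cebpa, Foxa2, Adipor2 and Adipor1 differed by -0.21, -0.21, 0.07 and 0.05 (adjusted p = 0.411, 0.476, 0.86 and 0.765 from limma). Their 95% CIs ran from -0.44 to 0.01, from -0.46 to 0.05, from -0.22 to 0.36 and from -0.06 to 0.16.

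In the set on standard diet, PCN again left 0 of the 8 genes past the threshold, beside 2.53% of all genes, 7 in number, and 1 of the 8, Foxa1, had an unadjusted p under 0.05, beside 13% of all genes. Igf1 was at -0.12, -0.56, -0.27, -0.28 and -0.19 with vehicle and at -0.53 to 0.10 (median -0.28) with PCN. The groups lay over each other, and the log2 fold change was 0.04 (95% CI -0.22 to 0.29, adjusted p = 0.96 from limma). Adipor2 was at 0.08, 0.03, 0.11, 0.34 and -0.09 with vehicle and at -0.20 to 0.11 (median -0.05) with PCN, a change of -0.14 (95% CI -0.33 to 0.05, adjusted p = 0.561 from limma). Foxa2 had the most scattered controls, at -0.10, -0.17, 0.06, -0.99 and -0.47, against -0.53 to -0.15 with PCN, and its change was 0.00 with a 95% CI from -0.36 to 0.36. The 95% CIs were -0.12 to 0.23 for Cebpa and -0.19 to 0.05 for Adipor1.

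Foxa1 was the only 1 of the 8 whose PCN and vehicle mice did not overlap in that set, beside 3.61% of all genes. Its probe was below background in both groups, and it did not pass the test (adjusted p = 0.338 from limma).

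The 2 agonists were also compared directly on cholesterol diet, at the single dose of each. These comparisons share the TCPOBOP or the PCN mice with those above. Igf1, Adipor2 and Cebpa were lower with TCPOBOP than with PCN, by log2 fold changes of -0.94 (SE 0.16), -0.84 (SE 0.13) and -0.75 (SE 0.10), with adjusted p-values of 0.000364, 0.000116 and 3.12e-05 from limma. The PCN mice ranged from 0.11 to 0.43 for Adipor2 and from 0.16 to 0.34 for Cebpa, and the groups overlapped for none of these 3 genes. Among the arrays in micrometres, Igf1 passed the test (adjusted p = 0.0399), while Cebpa was at -0.86 (adjusted p = 0.104) and Adipor2 at -0.75 (adjusted p = 0.153). Foxa2, at -0.73 to -0.08 (median -0.41) with PCN, was higher with TCPOBOP by 0.54 (SE 0.12, adjusted p = 0.00186 from limma). It was higher by 0.74 among the arrays in millimetres (adjusted p = 0.000722) and by 0.15 among those in micrometres (adjusted p = 0.705).

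Adipor1, at -0.23 to -0.11 with PCN, differed by 0.15 (SE 0.05, adjusted p = 0.0374 from limma). That call was lost when any 1 of 9 of the 12 mice was left out, with an adjusted p of up to 0.0835, namely each PCN mouse and TCPOBOP replicates 2, 3 and 4. In all, 5 of the 8 genes passed, 2 higher and 3 lower, beside 27.4% of all genes, 15.5% higher and 11.9% lower, and 3 of the 8 did not overlap, beside 13.7%. The 2 treatments differ in dose, by 3 against 40 mg/kg, and in the age of the mice.

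**Figure D3:**
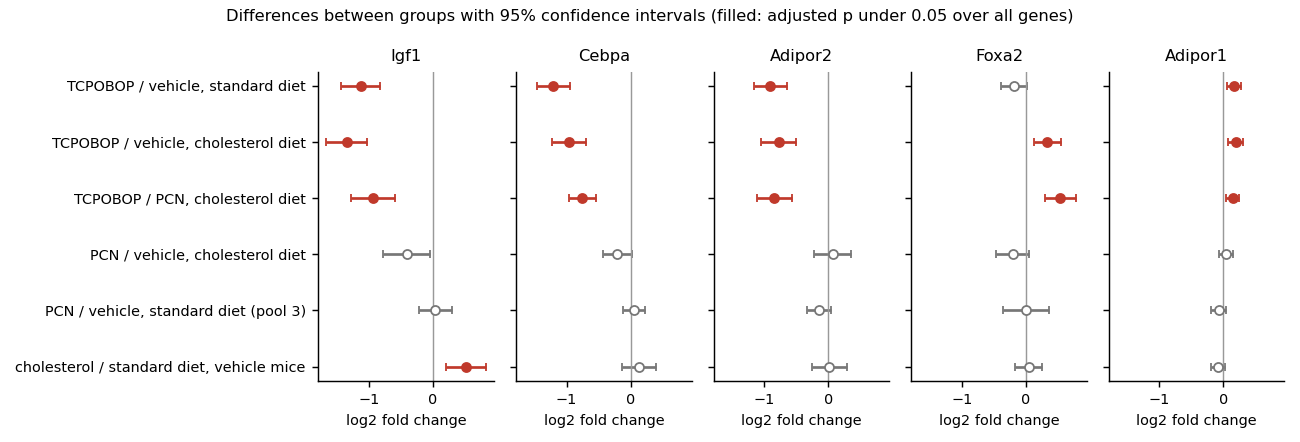
Log2 fold changes with 95% confidence intervals for the 5 genes above background in 6 comparisons, filled where the adjusted p from limma was under 0.05. The intervals of Igf1, Cebpa and Adipor2 lay wholly below 0 in the 3 TCPOBOP comparisons, with the lowest estimate at -1.35 for Igf1, and the 2 PCN against vehicle comparisons held no filled point.

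On pool 1 the group means of Igf1 rose in the order of TCPOBOP on standard diet (-1.10), TCPOBOP on cholesterol diet (-0.80), vehicle on standard diet (0.04), PCN on cholesterol diet (0.14) and vehicle on cholesterol diet (0.55). Neighbours in this order overlapped, except across the gap of 0.84 between the TCPOBOP groups and the rest. Cebpa ran from -0.85 and -0.48 in the TCPOBOP groups to 0.27 with PCN, 0.36 with vehicle on standard and 0.49 with vehicle on cholesterol diet. Adipor2 ran from -0.73 and -0.58 to 0.18, 0.20 and 0.27, the last being PCN. In both genes only the step above the TCPOBOP groups was free of overlap, at 0.75 each. The means of Foxa2 lay between -0.43 with TCPOBOP on standard and 0.14 with TCPOBOP on cholesterol diet, those of Adipor1 between -0.18 and 0.06, and all neighbours of these genes overlapped.

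Among 207 other genes above background, those with the most similar 5 group means, after centring each gene, were found by their root mean square difference. For Igf1 they were Cebpa (0.145), G6pc (0.22) and Scarb1 (0.231). G6pc is the catalytic subunit of the glucose-6-phosphatase that releases glucose from the liver, and Scarb1 is the receptor for HDL. For Adipor2 they were Scarb1 (0.0576), C4bp (0.122) and Cebpa (0.141), C4bp being the complement C4 binding protein. For Cebpa they were Scarb1 (0.138), Adipor2 (0.141) and Igf1 (0.145). These distances describe 5 group means that share their arrays and one reference.

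**Figure D4:**
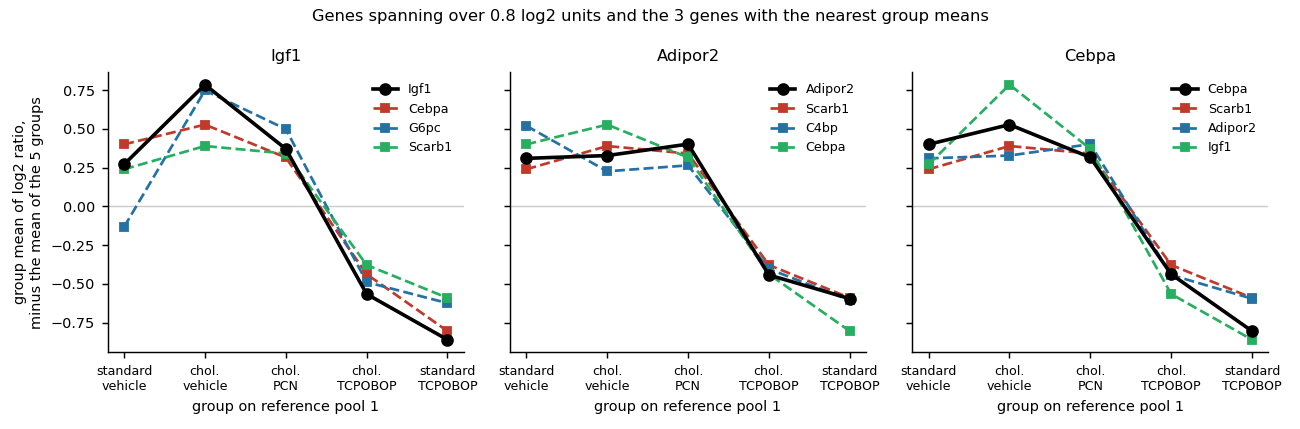
Group means of the log2 ratio on reference pool 1, centred on the mean of the 5 groups, for Igf1, Adipor2 and Cebpa (black) and the 3 genes nearest to each (colours). All lines fall at the TCPOBOP groups, and Scarb1 follows Adipor2 most closely, at a root mean square difference of 0.0576 log2 units.

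Beside the 8 genes, 11 other genes of insulin, IGF and adiponectin signalling were on the array. With TCPOBOP 1 of them was higher and 3 were lower on standard diet, and 1 was higher and 1 lower on cholesterol diet. Over all genes, 22% were higher and 21.3% lower on standard diet, and 23.1% and 14.4% on cholesterol diet. The 11 genes had median log2 fold changes of -0.12 and -0.08. The largest change was that of Ppp1r3c, which encodes a subunit that directs protein phosphatase 1 to glycogen. It changed by -3.34 on the log2 scale (SE 0.18, adjusted p = 2.01e-12 from limma) on standard diet and by -2.51 (SE 0.19, adjusted p = 4.46e-10) on cholesterol diet. With PCN it was 1 of the 7 genes of the array that changed on standard diet, by -0.82 (SE 0.17, adjusted p = 0.0284 from limma). With the diet 0 of the 11 changed. Of 12 genes listed for growth hormone and STAT signalling, 2 were on the array, Jak2 and Stat3. Ghr, Stat5a and Stat5b were not on it. Jak2 and Stat3 were both lower with TCPOBOP on standard diet (median -0.27), beside 21.3% of all genes. On cholesterol diet 0 of the 2 changed with it, beside 37.5%. A link of these 2 genes to the fall of Igf1 was not tested.

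Of the other liver-enriched transcription factors, 9 were on the array. With TCPOBOP 2 were higher and 1 lower on standard diet, 1 was higher and 0 lower on cholesterol diet, and the diet raised 1 and lowered 1. The shares of all genes with TCPOBOP are given above, and the diet changed 14.4% of all genes. The gene lowered by the diet was Nr1i3, which encodes CAR itself, also the 1 lower with TCPOBOP on standard diet, with log2 fold changes of -0.60 (SE 0.15, adjusted p = 0.0082) and -0.71 (adjusted p = 0.000462) from limma. The array held 9 genes known to be controlled by C/EBP or FOXA factors in liver. With TCPOBOP 0 were higher and 4 lower on standard diet (median -0.49), and 1 was higher and 5 lower on cholesterol diet (median -0.40), beside 21.3% and 14.4% of all genes lower. The largest changes were those of the acute phase genes Saa1 and Saa2, at -3.48 and -3.55 on standard diet (SE 0.72 and 0.74, adjusted p = 0.000517 and 0.000553 from limma). These 2 genes are near-identical in sequence, and cDNA probes may not tell them apart. With PCN on standard diet, 0 of the 9 were higher and 1 was lower (median -0.40), beside 2.53% of all genes called. On cholesterol diet PCN changed 0 of the 9 (median -0.11), beside 1.08% of all genes. A link of the 9 genes to the fall of Cebpa was not tested.

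Other lists were read in the same way. All 8 genes of the CAR and PXR response were higher with TCPOBOP on both diets, beside 22% and 23.1% of all genes. Cyp2b10, the classical CAR target, was at 2.98 (SE 0.15) and 3.15 (SE 0.16). Cyp2b9, Cyp2b10 and Cyp2b13 belong to the same gene family, as do Cyp3a11 and Cyp3a13, so the 8 are not independent readings. Whether the cDNA probes tell these relatives apart was not tested. With PCN, 1 of these 8 genes was higher on cholesterol diet, Slco1a4, a transporter of organic anions, at 0.95 (SE 0.18, adjusted p = 0.00843 from limma). On standard diet 2 of the 8 were higher with PCN, Slco1a4 at 0.62 (SE 0.14, adjusted p = 0.0412) and Cyp3a11, the classical PXR target, at 0.99 (SE 0.19, adjusted p = 0.0283), from limma. Over all genes, 1.08% passed with PCN on cholesterol and 2.53% on standard diet, in either direction. Cyp3a11 did not pass the test for PCN on cholesterol diet. Its mean level there was -1.16 (SD 0.71) with vehicle and -0.24 (SD 0.23) with PCN. Of the 12 hepatocyte markers, 1 was higher and 5 were lower with TCPOBOP on standard diet, beside 22% and 21.3% of all genes. On cholesterol diet 1 was higher and 2 were lower, beside 23.1% and 14.4%. The 1 higher on each diet was Cyp3a11, counted above among the CAR and PXR genes. Alb, Apoa1 and Fgb are also counted among the C/EBP or FOXA genes, and Hnf4a among the transcription factors. The mean log2 ratio of the 12 per mouse lay between 0.09 and 0.21 with vehicle and between -0.25 and -0.04 with TCPOBOP on standard diet. On cholesterol diet it lay between -0.24 and 0.18 with vehicle, a range that held the TCPOBOP mice, at -0.20 to -0.01. Of 5 adipocyte markers on the array, of 9 listed, 3 were lower with TCPOBOP on standard diet, beside 21.3% of all genes. On cholesterol diet 0 were lower, beside 14.4%. Lep was above background on 0 arrays. Retn was so on 1 of 6 standard diet vehicle arrays and 2 of 6 with TCPOBOP, and Pparg on 3 and 4. Adipoq, Lep and Slc2a4 are also among the 11 signalling genes above. The mean log2 ratio of the 5 per mouse, dim probes included, lay between 0.12 and 0.22 with vehicle and between -0.03 and 0.08 with TCPOBOP on standard diet. The ranges on cholesterol diet were -0.07 to 0.12 and -0.05 to 0.12. The 1 bile duct marker on the array, of 5 listed, was Slc10a2, a bile acid transporter. It passed the test as higher on both diets, although above background on 0 of 6 arrays with vehicle and 6 of 6 with TCPOBOP on standard diet, and its log2 ratio went from between -0.87 and -0.39 with vehicle to between -0.11 and 0.27 with TCPOBOP on standard diet, and from between -0.83 and -0.38 to between -0.09 and 0.41 on cholesterol diet. The part of other cell types in the falls of Igf1, Cebpa and Adipor2 was not tested.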

How the data were processed

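Liver RNA of single mice (Cy3) was hybridized with RNA of reference pool 1 or 3 (Cy5) on 2-colour Steroltalk cDNA arrays. The authors describe their reference as an equal mix of the RNA samples of their study. The authors deposited raw scanner intensity values per spot, with no background subtraction or normalization, and a table of log2 ratios that they had normalized and averaged per probe. The normalization of that table is not given in the sources used here. The intensity values gave all results, and the deposited log2 ratios, whose r with them per array was 0.917 to 0.996 on pool 1 and 0.69 to 0.979 on pool 3, were an alternative.

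Of 42 samples, 40 arrays were used. The scanner values of cholesterol diet vehicle replicate 2 were not used here, but its deposited log2 ratios entered that alternative, which was also run on the same mice only, a choice made after seeing the data. One scanner file was given for both mouse 1 and mouse 3 of the vehicle mice in the PCN set. Its r with the deposited values was -0.026 and 0.926, so it was counted once, as replicate 3. Background was corrected with normexp (offset 50), loess (span 0.3) was fitted over mouse spots, and spots were averaged. The 284 mouse probes stand for 277 genes, named by symbol (220), synonym (50) or file name (14). For 6 genes with several probes the brightest was taken. A probe was above background where, on most spots, its mean liver intensity exceeded the local background's median by over 2 SDs. No probe of the 8 genes was saturated.

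Tests used limma 3.58.1 (lmFit and eBayes, R 4.3.3) with Benjamini-Hochberg adjustment over all genes. The vehicle and TCPOBOP groups of pool 1 entered 1 fit (23 arrays), the 3 cholesterol-fed groups another fit, and the 2 groups of pool 3 their own. Methods' t-tests, other background corrections, scalings, spot summaries, filters, blocks and batches, and leaving out each mouse, were alternatives. The code was tested on simulated data. Batches were sets of arrays with spot positions in millimetres or micrometres (pool 1) and with bright or dim calibration spikes (pool 3). All 8 genes are named, and of the lists at most 6 genes per comparison, by size of change among those that passed. The genes and lists were chosen with earlier results of these data known. The number of arrays limits the precision. Promoters came from RefSeq (GRCm38.p6), read with Python 3.11.15.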

Additional observations from a re-analysis of the deposited data

Results flagged for a closer look

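Of 56 groups of 5 or 6 mice, over 8 genes and 7 groups, 5 held a mouse that stood far from the others by Dixon's criterion, which chance reaches in about 1 of 20 groups. Igf1 in TCPOBOP replicate 5 on standard diet was at -1.49, with the others between -1.07 and -0.94. Foxa2 in TCPOBOP replicate 1 on cholesterol diet was at -0.19, with the others between 0.13 and 0.26, and without that mouse the rise of Foxa2 was 0.40 (adjusted p = 0.00263 from limma). Adipor1 in PCN replicate 4 on cholesterol diet was at -0.23, with the others between -0.13 and -0.11. Cebpa in vehicle replicate 6 of the PCN set was at -0.26, with the others between -0.01 and 0.08. Irs2 in vehicle replicate 4 on cholesterol diet was at 0.0522, with the others at 0.17 each, and its probe was below background on all of these arrays.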

How the results depend on the processing

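Over 1529 refits of the 8 genes, 1444 kept the side of the threshold, 69 calls were lost and 15 were gained. In 91 of the 1444, a change that passed in neither fit had the other sign. The 1 call of the other sign arose only with plain background subtraction, for Foxa1 and the diet. It was not called otherwise, and the value of -3.54 comes from the few arrays with a positive intensity of a probe below background, so it is no measured fold change. The falls of Igf1 with TCPOBOP against vehicle passed in every refit on both diets, and those of Cebpa and Adipor2 in every one except within the arrays in micrometres. Of the 5 genes called for TCPOBOP on standard diet, 3 were called with plain subtraction, with median centring and within millimetres. So were 3 with the deposited log2 ratios (all or the same mice). A curve fitted on the spikes alone, a choice made after seeing the data, also gave 3. Within micrometres 1 was called. Of the 6 on cholesterol diet, 3 were called with the deposited log2 ratios of either set of mice, which hold 5 of the 8 genes, and 1 within micrometres. Of the 2 for the diet, 1 was called with median centring, the deposited log2 ratios of either set or dim probes left out, and 0 within micrometres or millimetres. The difference between diets gave 1 with dim probes left out or an adjusted p under 0.16. PCN gave 1 on cholesterol diet with only 2 groups in the fit and by the methods' t-test at their threshold, which also gave 1 on standard diet. TCPOBOP against PCN gave 1 within micrometres. Leaving out each mouse in turn gave 5 to 6 calls for TCPOBOP on standard diet, 5 to 7 on cholesterol diet, 0 to 2 for the diet, 4 to 5 for TCPOBOP against PCN, and 0 elsewhere. The fall of Foxa2 on standard diet, at -0.25 without vehicle replicate 6, passed at 0.05 only then (adjusted p = 0.0324 from limma). The rise of Irs2 for the diet was lost without standard diet vehicle replicate 3 or 5, and its fall with TCPOBOP on cholesterol diet in 8 of 11 fits. The replicate numbers did not pair the mice (median r of same-numbered arrays 0.05, 0.003 and -0.133 in the 3 fits). With the replicate block, Foxa1 was also called for TCPOBOP on cholesterol diet (adjusted p = 0.0232 from limma), below background, and no other call of the 8 genes changed. With the curve on the spikes the median of all genes for PCN on standard diet shifted to -0.13, with the deposited ratios of the same mice to -0.17, and for the difference between diets to 0.12. Over all genes, TCPOBOP on standard diet called 120, but 33 within micrometres, 90 with median centring and 83 with the curve on the spikes. With the deposited log2 ratios it called 73 of 183, and 72 of 180 with those of the same mice. On cholesterol diet it called 104, but 25 within micrometres, 82 with median centring and 75 with the curve on the spikes. With the deposited ratios of the same mice it called 64 of 180 there. The diet called 40, but 79 by the methods' t-test, 78 at 0.16 and 0 within micrometres. TCPOBOP against PCN called 76, but 48 of 184 with the deposited ratios, 46 of 183 with those of the same mice, 118 at 0.16 and 22 within micrometres. The difference between diets called 0, but 6 with dim probes left out, 17 at 0.16, 1 within millimetres and up to 6 without 1 mouse. PCN on cholesterol diet called 3, of which 2 were higher, but 5 with 2 groups in the fit, 6 by the methods' t-test at their threshold and 1 after adjustment, 7 at 0.16, 13 within millimetres, 0 within micrometres and up to 6 without 1 mouse. With median centring or the deposited ratios of the same mice it called 2, both higher. PCN on standard diet called 7, of which 4 were higher, but 3 with plain subtraction, 0 with median centring, 2 with the deposited ratios or the methods' t-test after adjustment, 16 at 0.16, 1 with the block, within dim spikes or with the curve on the spikes, 0 within bright spikes and as few as 2 without 1 mouse. Arrays of pool 3, the dimmest, limit what can be seen there.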
